A study of Mus musculus with 6 samples.

Results

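The apolipoprotein L (Apol) genes of mouse chromosome 15 were followed in 3 spleens of an adoptive transfer model and in 3 samples of wild-type splenic B cells. The 8 members, Apol6, Apol7c, Apol8, Apol9a, Apol9b, Apol10b, Apol11a and Apol11b, were found by Ensembl ID among the 56884 gene rows of the count table. The family was picked because Apol11a and Apol11b had some of the largest differences between the groups. Ranked by log2 fold change, Apol11b was 2 and Apol11a was 5 of the 15462 genes with enough counts to be fitted. Differences of members between the groups are therefore descriptions, given with a standard error and no test. Another 5 rows of chromosome 15 carry Apol symbols and are given beside the members.

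P1 spleens are whole spleens of recipient mice at passage 1 of adoptive transfer of Eµ-SOX11CCND1 cells, a mouse model of mantle cell lymphoma. By its name the model carries SOX11 and CCND1 under Eµ, the immunoglobulin heavy chain enhancer, which is active in B-lineage cells. The P1 libraries are replicates 3, 4 and 5, 1 mouse each. The comparison group was B cells selected from spleens of WT mice, whose table columns also name BL6. Nothing links a WT column to a numbered mouse, so the columns are called A, B and C, and 2 of these 3 column names share a tag whose meaning is not given. Recipient strain, age and sex are not given in the sources used here. The groups differ at once in transgene, passage and cell selection, and the host cells of a P1 spleen were not removed. In such bulk RNA, fewer cells of a type and less RNA per cell cannot be told apart.

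Apolipoprotein L proteins share a family domain with similarity to membrane-inserting channel proteins. In humans, APOL1 travels on high-density lipoprotein and kills trypanosomes, whereas most other family members lack a secretion signal and work inside the cell. Several human and mouse members are induced by interferon. The mouse chromosome 15 genes arose by local duplications separate from those of primates, so that mouse numbers do not always mark human counterparts.

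Sox11 had 956, 4066 and 5584 counts in P1 replicates 3, 4 and 5, against 0, 1 and 0 counts in WT B cells A, B and C. Libraries held 7510327 to 10363396 counts in P1 and 12196413 to 14266132 counts in WT. P1 replicate 4 stood apart from the other libraries. Its mitochondrial share was 17.4%, against 3.4% and 0.1% in the other P1 libraries and 0.6 to 1.1% in WT B cells. Its scaling factor, computed by the trimmed mean of M-values (TMM), was 0.578, against 1.09 to 1.19 in all other libraries. In it, 4 globin genes made up 11.7% of counts, against 2.9% and 0.476% in P1 replicates 3 and 5 and at most 0.0076% in WT B cells. B-cell genes fell in the P1 spleens: of 22 tested pan-B genes 19 were lower and 0 higher. Of all 15462 tested genes 16.9% were called higher and 11.0% lower (edgeR), the shares to set beside each list count below. Levels below are CPM, read counts scaled to library size after TMM correction, unless stated as RPKM, which also divides by exon length. When libraries were instead scaled to equal levels of pan-B genes, 3 pan-B genes were lower and 3 higher, and the typical gene was 2.72 higher on the log2 scale in P1 spleens.

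Apol11b was the most abundant member in P1 spleens and close to absent in WT B cells. It had 13856, 11358 and 1151 counts in P1 replicates 3, 4 and 5, against 1, 1 and 3 counts in WT B cells A, B and C. These are 1187, 2618 and 133 CPM in P1 spleens, against 0.0604, 0.064 and 0.226 CPM in WT B cells. Even the lowest P1 library was far above every WT library, and the WT levels rest on at most 3 reads each. The fitted log2 fold change was 13.39 ± 1.45 (SE, 3 libraries per group). The ratio of pooled counts, each divided by the pooled TMM-corrected library size of its group, was 9723. Its 95% interval of 4166 to 29946 covers counting error only.

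Apol11a, the close relative of Apol11b, had the same contrast at a lower level. It had 3693, 728 and 316 counts in P1 replicates 3, 4 and 5, against 1, 0 and 0 counts in WT B cells A, B and C. In CPM these were 316, 168 and 36.5 in P1 spleens, against 0.0604, 0 and 0 in WT B cells. The log2 fold change was 12.38 ± 1.21 (SE), and because the WT group held 1 read the counting interval of the 8734-fold ratio ran from 1567 to 345057. The pair did not keep a fixed proportion. Apol11b exceeded Apol11a by 3.75-fold, 15.6-fold and 3.64-fold in P1 replicates 3, 4 and 5, so replicate 4 was the library in which Apol11b took most of the pair. Over the 998 aligned coding bases the pair is 95.1% identical, and 15.3% of the distinct 50-base stretches of the Apol11a transcript also occur in Apol11b. The split of reads between them is therefore uncertain, by an amount that this share does not bound, since the treatment of multi-mapping reads is not given. Summed as a single gene they gave a log2 fold change of 13.34 ± 1.37 (SE).

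**Figure D1:**
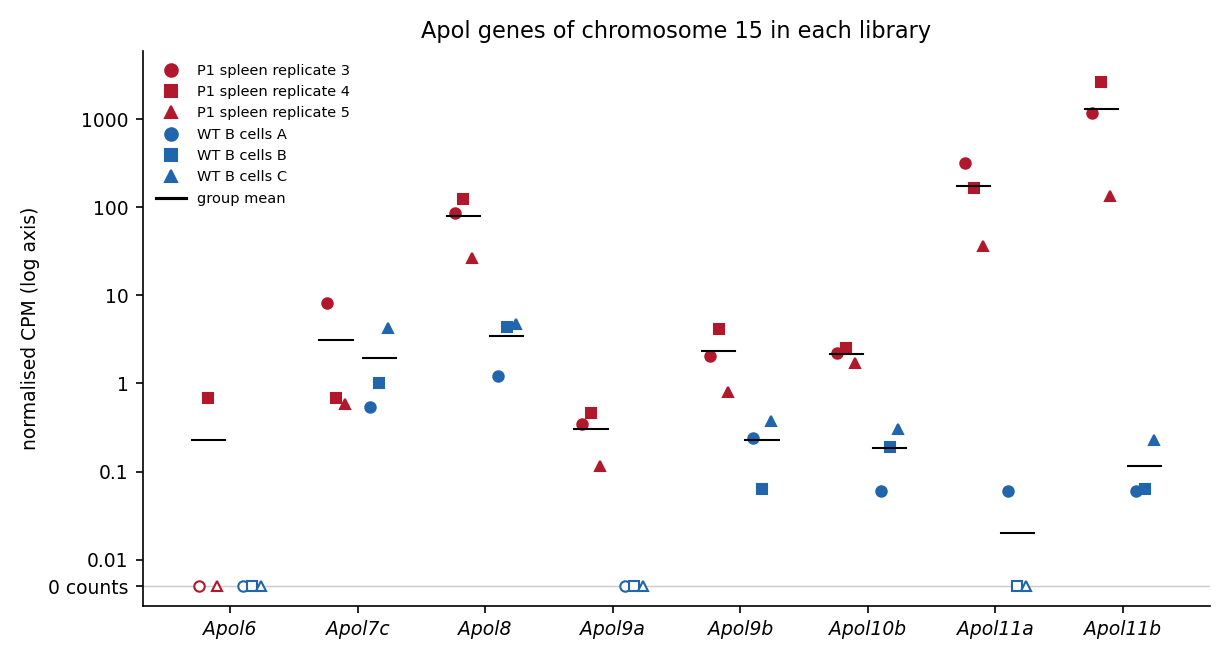
Normalised CPM (log axis) of the 8 Apol members in each library, with P1 spleens in red to the left of WT B cells in blue, black lines for group means and open symbols at the bottom for 0 counts. Apol11b lies between 133 and 2618 CPM in P1 spleens and at most 0.226 CPM in WT B cells, while the groups overlap for Apol6 and Apol7c.

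Upstream sequence showed how close these genes are. The 250 bases before the RefSeq transcript start are shown for Apol11b, for its relative Apol10a, and for Apol9b as a less abundant member with another layout. They were read from RefSeq on GRCm38.p6, which is not the GRCm39 build of the count table, and the positions are chr15:77643287-77643536 (minus strand) for Apol11b, chr15:77476797-77477046 (plus strand) for Apol10a and chr15:77728822-77729071 (plus strand) for Apol9b. Capitals mark matches, on either strand, to the core of the interferon-stimulated response element (GAAA, any 2 bases and GAAA, called the ISRE core here), TTCNNNGAA (gamma-activated site) and GATAA (GATA factor core).
Apol11b: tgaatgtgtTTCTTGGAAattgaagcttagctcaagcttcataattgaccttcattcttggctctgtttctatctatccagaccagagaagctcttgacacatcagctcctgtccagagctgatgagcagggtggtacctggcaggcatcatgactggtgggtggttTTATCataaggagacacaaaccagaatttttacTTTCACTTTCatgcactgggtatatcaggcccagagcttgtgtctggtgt
Apol10a: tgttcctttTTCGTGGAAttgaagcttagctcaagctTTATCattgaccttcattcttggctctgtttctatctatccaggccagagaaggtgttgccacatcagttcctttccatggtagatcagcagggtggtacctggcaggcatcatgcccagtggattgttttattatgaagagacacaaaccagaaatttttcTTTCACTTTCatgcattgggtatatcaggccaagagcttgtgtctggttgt
Apol9b: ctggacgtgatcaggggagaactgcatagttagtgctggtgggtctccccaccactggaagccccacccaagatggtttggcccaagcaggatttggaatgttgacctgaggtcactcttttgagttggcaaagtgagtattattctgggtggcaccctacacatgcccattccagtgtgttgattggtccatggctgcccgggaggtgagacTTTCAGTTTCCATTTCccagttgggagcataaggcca
The Apol11a window is identical to that of Apol11b at 100% of 250 bases, and the Apol10a window matches either at 87.6% of 249 aligned bases. Despite the identical windows, Apol11b and Apol11a differed in level in every P1 library.

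In the Apol11a and Apol11b windows the ISRE core match begins 50 bases before the start, the GATAA match 83 bases before it and the TTCNNNGAA match 241 bases before it. In Apol10a the ISRE core match lies at 51 bases and the TTCNNNGAA match at 241 bases, while GATAA lies elsewhere, at 213 bases. The printed Apol9b window holds the ISRE core at 37 and at 31 bases, as overlapping matches in a single run, and neither of the other motifs. Of the 7 members with a window in the RefSeq table, the ISRE core occurred in 5, TTCNNNGAA in 2 and GATAA in 3. Among all 32851 windows of the same length, 2.98% held the ISRE core, 7.02% held TTCNNNGAA and 22.6% held GATAA. The Apol8 window held none of the 3, and that of Apol10b held GATAA alone. Since the Apol11 windows are copies of each other, as are those of Apol9a and Apol9b over 231 aligned bases, matches in them are not separate observations, and a match is a description of letters and not a binding site.

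Apol8 was the member with the next highest level in P1 spleens and the main one in WT B cells. It had 1015, 547 and 228 counts in P1 replicates 3, 4 and 5, against 20, 68 and 63 counts in WT B cells A, B and C. In CPM it reached 86.9, 126 and 26.3 in P1 spleens, against 1.21, 4.35 and 4.74 in WT B cells. All P1 libraries were above all WT libraries, with a log2 fold change of 4.54 ± 0.71 (SE). No 50-base stretch of its transcripts occurs in another Apol gene, so its reads are the least open to misassignment within the family, together with those of Apol6.

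Apol10b was low in both groups and the steadiest member among P1 spleens. It had 26, 11 and 15 counts in P1 replicates 3, 4 and 5, against 1, 3 and 4 counts in WT B cells A, B and C. Its levels of 2.23, 2.54 and 1.73 CPM in P1 spleens, against 0.0604, 0.192 and 0.301 CPM in WT B cells, did not overlap. The log2 fold change was 3.51 ± 0.61 (SE). The highest P1 library was 1.46 times the lowest, against 19.7 times for Apol11b, 8.66 times for Apol11a and 4.79 times for Apol8, although at such counts part of any spread is counting error.

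Apol9b and Apol9a, which in mice are known as interferon-inducible genes, were scarcely detected. Apol9b had 24, 18 and 7 counts in P1 replicates 3, 4 and 5, against 4, 1 and 5 counts in WT B cells A, B and C. Its ratio of pooled counts, each divided by the pooled TMM-corrected library size of its group, was 9.03. The counting interval was 4.52 to 20.0. Apol9a had 4, 2 and 1 counts in P1 replicates 3, 4 and 5, against 0 in every WT library. This is 4.3-fold higher if a floor of 3 counts is assumed over the WT group, with no counting error allowed for. Both genes had all P1 libraries above all WT libraries, but neither passed the filter on low counts. Their coding sequences are 98.5% identical over 930 bases and 52.3% of the 50-base stretches of Apol9b occur in Apol9a, so reads could move between them. Counted together they passed the filter, with 28, 20 and 8 counts in P1 replicates 3, 4 and 5, against 4, 1 and 5 counts in WT B cells A, B and C, and a log2 fold change of 3.45 ± 0.79 (SE).

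Apol7c, a gene known from activated mouse dendritic cells, gave no stable direction. It had 95, 3 and 5 counts in P1 replicates 3, 4 and 5, against 9, 16 and 56 counts in WT B cells A, B and C. P1 replicate 3 alone was above every WT library, at 8.14 CPM against 0.543, 1.02 and 4.22 CPM in WT B cells. The log2 fold change was 0.78 ± 1.08 (SE) with all libraries and -1.60 without P1 replicate 3. Apol6, whose human namesake is known to promote apoptosis when overexpressed, had 0, 3 and 0 counts in P1 replicates 3, 4 and 5, against 0 in every WT library. At this depth 3 counts equal 0.257 to 0.691 CPM in a P1 library and 0.181 to 0.226 CPM in a WT library, so no fold is given for Apol6.

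Of the 8 members 5 passed the filter on low counts. Apol10b, Apol11a and Apol11b passed it only through their P1 counts, so no count of calls is given for the members. In 4 of the 5 members past the filter every P1 library lay above every WT library, an arrangement found for 22.9% of all tested genes. Adding Apol9a and Apol9b, which have few counts and did not pass the filter, it held for 6 of the 8 members. In 0 members did every P1 library lie below every WT library, as it did for 24.9% of tested genes. These counts describe a family chosen on this same contrast, and nothing is read from them.

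Per exon length the order in P1 spleens was Apol11b with 533 ± 506 RPKM, Apol11a with 93.1 ± 75.1 RPKM and Apol8 with 26.9 ± 17.0 RPKM (mean ± SD, n = 3). After them came Apol7c with 1.52 ± 2.1 RPKM, Apol9b with 1.28 ± 0.927 RPKM, Apol10b with 0.931 ± 0.174 RPKM, and Apol9a and Apol6 with 0.0515 and 0.0512 RPKM. The ranges of neighbours in this order overlap, except that Apol8 lies above Apol7c and Apol10b above Apol9a in all P1 libraries. Within each P1 library, however, Apol11b exceeded Apol11a and Apol11a exceeded Apol8. WT B cells had another order, led by Apol8 with 1.16 ± 0.654 RPKM and Apol7c with 0.936 ± 0.969 RPKM, whose ranges overlap (SD, n = 3). Next were Apol9b with 0.125 RPKM, Apol10b with 0.0793 RPKM, Apol11b with 0.0474 RPKM and Apol11a with 0.0108 RPKM, where each neighbour's range overlaps the next and Apol7c lies above Apol9b in all WT libraries, and Apol9a and Apol6 were at 0.

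Summed over the 8 members, the family reached 1603, 2920 and 199 CPM in P1 replicates 3, 4 and 5, against 2.17, 5.69 and 9.86 CPM in WT B cells A, B and C. Apol11b supplied 74.0%, 89.6% and 66.8% of that sum in P1 replicates 3, 4 and 5. In WT B cells Apol8 supplied 55.6%, 76.4% and 48.1% of it. By CPM the leading gene was therefore Apol11b in each P1 spleen and Apol8 in each WT library, but per exon length Apol7c led in WT library C, with 2.05 RPKM against 1.6 RPKM for Apol8.

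Of the 5 other Apol rows of chromosome 15, 2 passed the filter on low counts, Apol10a and Apol7e. Both passed it only through their P1 counts, so their differences are descriptions, given with no test. Apol10a had 223, 91 and 16 counts in P1 replicates 3, 4 and 5, against 0 in every WT library. This is 203-fold higher if a floor of 3 counts is assumed over the WT group, with no counting error allowed for. Apol7e had 143, 96 and 81 counts in P1 replicates 3, 4 and 5, against 11, 3 and 22 counts in WT B cells A, B and C. The log2 fold change of Apol7e was 4.12 ± 0.73 (SE), and its P1 libraries lay within 2.36-fold of each other. Of its 50-base stretches 70.0% occur in Apol7b, so reads could move between them. The pseudogene Apol10c-ps had 128, 57 and 3 counts in P1 replicates 3, 4 and 5, against 0 in every WT library. Its difference, 116-fold against the same assumed floor, was not tested. The same P1 library, replicate 5, was lowest for Apol10a, Apol10c-ps, Apol11a and Apol11b. Apol7b held 11, 1 and 8 counts in P1 replicates 3, 4 and 5, against 1, 1 and 5 counts in WT B cells A, B and C, so its groups overlap, and 69.3% of its 50-base stretches occur in Apol7e. Apol7a had a single read in P1 replicate 3 and none elsewhere. Off chromosome 15, Apol7d, on chromosome 1, had 4 counts in P1 replicate 3 and 0 in all other libraries.

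The genes that border the family showed no called difference. In the GRCm39 coordinates of the table the Apol rows extend over chr15:76928929-77641203, or 712 kb, with Apol6 at one end and Apol8 at the other. The 5 tested genes on each side had log2 fold changes of -0.46 to 0.72, and 0 of these 10 were called (edgeR, smallest adjusted p = 0.166; 0 also at an unadjusted p under 0.05, and 0 called by DESeq2 and by limma-voom). Scaled to equal pan-B levels, all 10 were called. Myh9, the heavy chain of nonmuscle myosin IIA and the gene next to Apol8 at a distance of 3584 bases, had 2138, 4705 and 3032 CPM in P1 replicates 3, 4 and 5, against 2700, 2683 and 2928 CPM in WT B cells A, B and C. Its log2 fold change was 0.25 ± 0.45 (SE; edgeR, adjusted p = 0.724). Inside the interval, 22 rows are not Apol genes and 2 of them passed the filter on low counts. Gm8233 had a log2 fold change of 4.96, but it passed the filter only through its P1 counts, so no test is given. It also overlaps Apol7e on the same strand, so their reads cannot be cleanly separated. For Gm8221 the log2 fold change was 2.67 (edgeR, adjusted p = 0.0726).

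**Figure D2:**
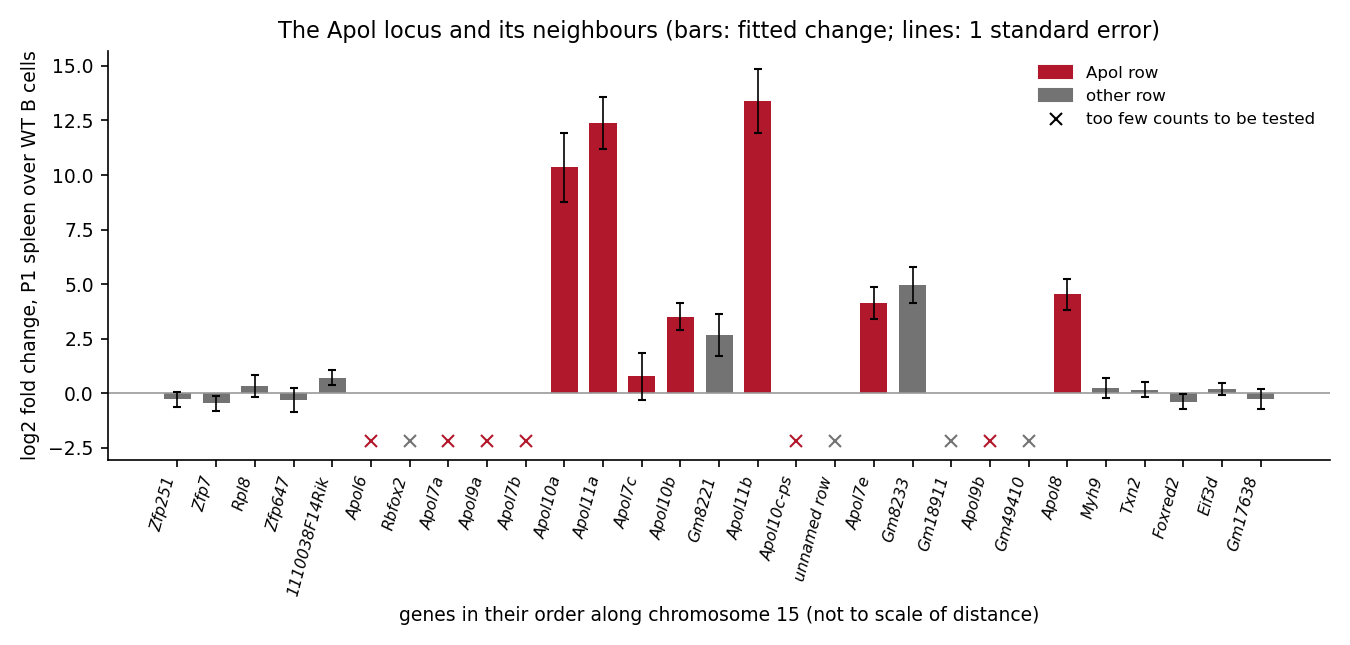
Log2 fold change of P1 spleen over WT B cells for Apol rows (red) and other rows (grey) in their order along chromosome 15, with bars for the fitted value, lines for 1 SE and crosses below the axis for rows with too few counts. The flanking genes lie between -0.46 and 0.72, while Apol11b and Apol11a reach 13.39 and 12.38; the bars of Apol10a, Apol11a and Apol11b depend on the value added to near-zero WT counts.

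Erythroid genes were read beside the family because the same libraries were rich in them. All 34 tested members of the erythroid list rose in P1 spleens (edgeR), with a median log2 fold change of 7.37, against 0.02 over all tested genes. Slc4a1, the anion exchanger of the red cell membrane, had 7955, 13118 and 1873 CPM in P1 replicates 3, 4 and 5, against 6.22, 4.73 and 6.02 CPM in WT B cells A, B and C (edgeR, adjusted p = 0.000579). Hba-a1, an alpha-globin gene, had 7236, 55662 and 1216 CPM in P1 replicates 3, 4 and 5, against 12.7, 7.99 and 11.7 CPM in WT B cells A, B and C (edgeR, adjusted p = 0.00267). Epor, the erythropoietin receptor, Tspo2, an erythroid relative of the translocator protein, and Tmcc2 rose as well, with log2 fold changes of 5.48, 8.32 and 8.27 (edgeR, adjusted p = 0.000579, 0.000569 and 0.000909).

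Across the P1 spleens Apol11b had the same order as the summed erythroid list, an order also held by the summed lists of dividing cells, of endothelial and stromal genes and of other apolipoprotein genes. That list summed to 49157, 252336 and 10040 CPM in P1 replicates 3, 4 and 5, against 396, 332 and 341 CPM in WT B cells A, B and C. Replicate 4 was highest and replicate 5 lowest for both. Per 1000 CPM of erythroid transcripts, Apol11b had 24.1, 10.4 and 13.2 CPM in P1 replicates 3, 4 and 5, a 2.33-fold range in place of 19.7-fold. For Apol11a the denominator mattered: per 1000 CPM of erythroid transcripts it had 6.43, 0.665 and 3.64 CPM in those libraries, a 9.68-fold range beside the 8.66-fold range of its level, but the range was 2.75-fold per Gata1, the erythroid transcription factor, and 3.11-fold per Slc4a1. Apol8 likewise had a 5.25-fold range per erythroid sum beside 4.79-fold for its level, but 1.14-fold per Gata1 and 1.46-fold per Slc4a1. Apol11b ranged 3.61-fold per Gata1 and 2.81-fold per Slc4a1. The erythroid sum is dominated by globins, and these are values of 3 libraries with no test.

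**Figure D3:**
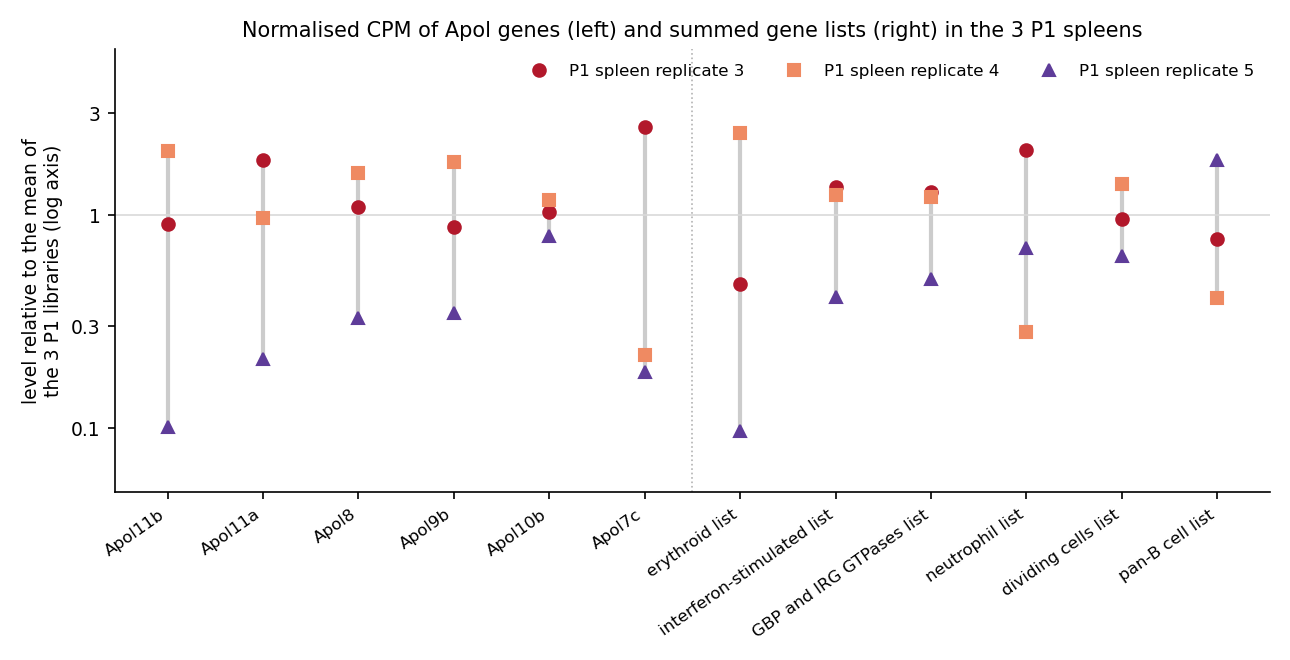
Normalised CPM of 6 Apol members and summed CPM of 6 gene lists in the 3 P1 spleens, each divided by its mean over those spleens (log axis), with grey lines from the lowest to the highest library. Replicate 5 (triangle) is lowest for all Apol members shown and for every list shown except the neutrophil and pan-B lists. It is highest for the pan-B list, and Apol10b varies least of the members.

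Slc4a1 and Ypel4 were among the 5 genes outside the Apol family most like Apol11a over the 6 libraries, and likewise for Apol11b. Likeness was the root mean square difference of mean-centred log2 CPM, in which smaller means more alike. For Apol11a the nearest, with Apol genes left out, were Ypel4 at 0.52, Slc4a1 at 0.58, Slfn4 at 0.61, Slfn14 at 0.74 and Btnl10 at 0.76. Slfn4, a Schlafen gene induced by interferon in mouse macrophages, had 161, 216 and 46.2 CPM in P1 replicates 3, 4 and 5, against 0, 0 and 0.151 CPM in WT B cells A, B and C. For Apol11b the nearest, with Apol genes left out, were Slc4a1 at 0.87, Hba-a2 at 1.09, Hba-a1 at 1.11, and Ypel4 and Hbb-bt at 1.28. Apol11a and Apol11b themselves differed by 1.27, which is more than the distance of Apol11a to any of its 5 nearest genes and just under that of Apol11b to Ypel4 and Hbb-bt. The libraries share group, depth and scaling, so these distances mostly reflect the size of the group difference.

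Interferon-stimulated genes were higher in part. Of 37 tested genes of that list 15 rose, 1 fell and 21 did not pass (edgeR), with a median log2 fold change of 1.01, and the 15 became 9 when WT library A, B or C was left out. Rsad2, the antiviral enzyme viperin, had 1220, 1386 and 56.5 CPM in P1 replicates 3, 4 and 5, against 1.81, 3.26 and 2.94 CPM in WT B cells A, B and C (edgeR, adjusted p = 0.00198). Isg15, a ubiquitin-like modifier, had 74.3, 166 and 14.6 CPM in P1 replicates 3, 4 and 5, against 2.47, 3.01 and 2.71 CPM in WT B cells A, B and C (edgeR, adjusted p = 0.00307). Both were lowest in P1 replicate 5, the library in which Apol11a, Apol11b and Apol8 were lowest too. This low was not particular to them. The summed lists of erythroid, dividing-cell, macrophage, megakaryocyte, and endothelial and stromal genes were also lowest there among P1 spleens. Those of dendritic, neutrophil, T cell and pan-B genes were not. Most of the dendritic sum, 762, 382 and 887 CPM in P1 replicates 3, 4 and 5, came from Wdfy4. That gene, at 487, 257 and 739 CPM there, was also abundant in WT B cells. Oas3 and Oasl2, of the oligoadenylate synthetase family, and Ifih1, a sensor of double-stranded RNA, rose by 4.27, 4.25 and 3.09 on the log2 scale (edgeR, adjusted p = 0.00309, 0.00288 and 0.00328). Lgals3bp also rose, by 3.00 (edgeR, adjusted p = 0.00596), but was highest in P1 replicate 5. Stat2 and Parp14 did not pass, at -0.24 and 0.18 (edgeR, adjusted p = 0.717 and 0.758). The gene that fell was Samd9l, named after its values were seen, at -1.90 (edgeR, adjusted p = 0.0305), and its call was lost without P1 replicate 4 or 5 and without WT library A or B.

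The summed interferon-stimulated list was 4051, 3704 and 1229 CPM in P1 replicates 3, 4 and 5, against 1130, 1214 and 1088 CPM in WT B cells A, B and C, so that P1 replicate 5 was just above the WT range. Per 1000 CPM of that list, Apol8 had 21.5, 34.0 and 21.4 CPM in P1 replicates 3, 4 and 5, a 1.59-fold range. By the same measure Apol11a ranged 2.63-fold and Apol11b 6.53-fold. Set beside the ranges per Gata1 and per Slc4a1, those per interferon sum were not lower throughout: Apol8 ranged less per Gata1 and per Slc4a1, and Apol11a had nearly the same range per Gata1. Whether either gene group accounts for the Apol levels was not tested.

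The guanylate-binding proteins and immunity-related GTPases, which are interferon-gamma targets in mice, had 9 of 16 tested genes higher and 0 lower, with a median log2 fold change of 1.83, and 14 were higher without P1 replicate 5 (edgeR). Gbp2 averaged 165 ± 58.1 CPM in P1 spleens and 18.8 ± 3.57 CPM in WT B cells (SD, n = 3 each; edgeR, adjusted p = 0.000788). Iigp1 averaged 87.0 ± 44.6 CPM in P1 spleens and 1.46 ± 1.06 CPM in WT B cells (SD, n = 3 each; edgeR, adjusted p = 0.00109). Of 18 tested interferon ligands, receptors and signalling genes 1 rose and 3 fell (edgeR), beside 16.9% higher and 11.0% lower among all tested genes. Ifng, the gene of interferon gamma, was the one that rose, with 13.8, 3.69 and 6.12 CPM in P1 replicates 3, 4 and 5, against 0.0604, 0.512 and 0.903 CPM in WT B cells A, B and C (edgeR, adjusted p = 0.00939, but 0.0519 without WT library B). Jak1 and Irf2 were lower, by log2 fold changes of -1.28 and -1.26 (edgeR, adjusted p = 0.0176 and 0.014). Leaving out any WT library lost the Jak1 call, and leaving out WT library A or B lost that of Irf2. Both changed sign, to 1.49 and 1.45, when libraries were scaled to equal levels of pan-B genes. Ifnb1, Ifnl2 and Ifnl3 had 0 counts in all P1 and all WT libraries. Ifna4 had 0 counts in all WT libraries but not in all P1 libraries, and it did not pass the filter.

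**Figure D4:**
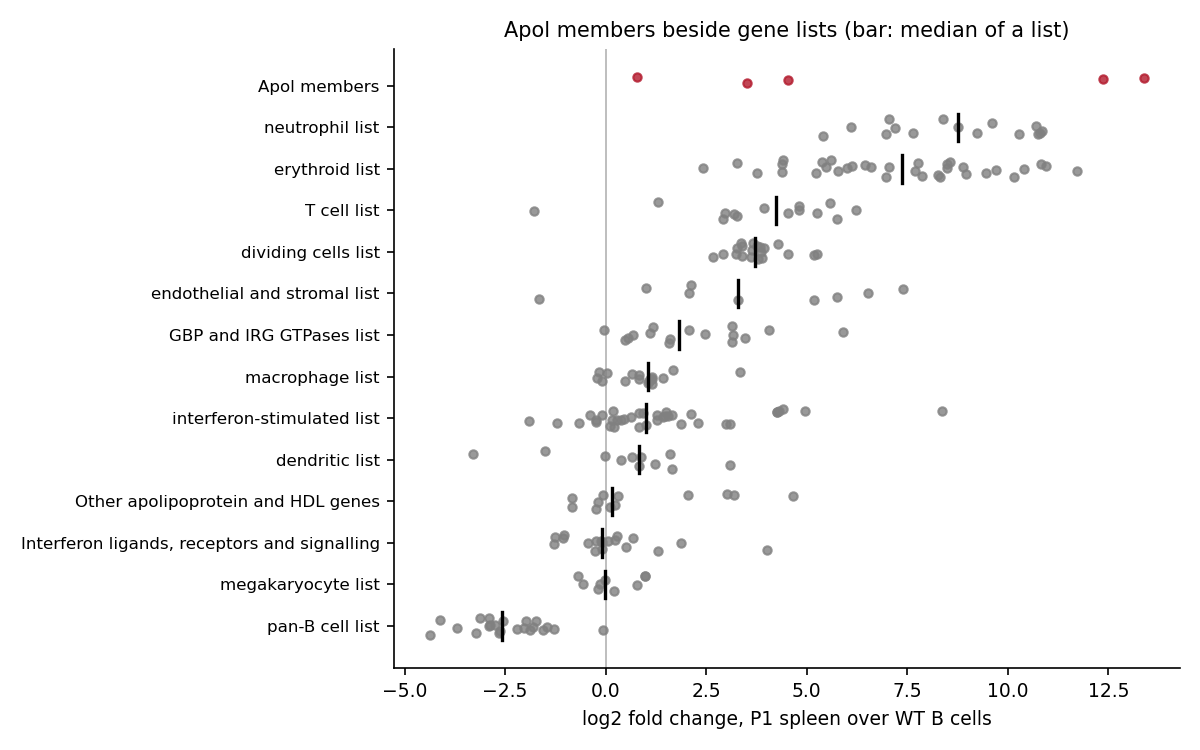
Log2 fold change of P1 spleen over WT B cells for the tested genes of each list (grey points, black bar at the list's median) and for the 5 Apol members that passed the filter (red). Erythroid genes centre on 7.37 and interferon-stimulated genes on 1.01. Apol11a and Apol11b, at 12.38 and 13.39, lie above every point of both. The family was picked for these large values, which rest on 1 and 5 WT counts.

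Marker lists of several other cell types also differed between the groups, while others had few or no calls. Among all tested genes 16.9% were called higher and 11.0% lower (edgeR). All 15 neutrophil genes rose (edgeR), and their summed level was 8518, 1188 and 2962 CPM in P1 replicates 3, 4 and 5, against 6.82, 4.22 and 12.6 CPM in WT B cells A, B and C. That order among P1 libraries, with replicate 4 lowest, was not the order of Apol11b, which was highest there. Of 14 T cell genes 13 rose and 1 fell, which was Cd2 at -1.79 (0.90 under pan-B scaling), and all 20 genes of dividing cells rose (edgeR). In the macrophage list 1 of 17 genes rose, Marco, at 3.33 (edgeR, adjusted p = 0.0125, and 0.0594 without WT library B). By DESeq2 3 macrophage genes were higher, and under pan-B scaling all 17 were. The dendritic list had 1 of 11 genes higher and 2 lower, and leaving out a library gave 0 to 3 higher and 1 to 2 lower (edgeR). The 2 lower genes, Ccr7 and Wdfy4, were abundant in the WT B cells, at means of 374 and 1399 CPM. Their fall therefore cannot be read as one of dendritic cells. Under pan-B scaling 9 dendritic genes were higher and 0 lower. The megakaryocyte list had 0 of 9 called in either direction (edgeR; 0 also at an unadjusted p under 0.05, and 0 by DESeq2 and limma-voom), but 6 were higher under pan-B scaling and 1 was lower without P1 replicate 3. The endothelial and stromal list had 5 of 9 genes higher and 1 lower (edgeR). The part of these cell types in the Apol levels was not tested.

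Apol genes are named after apolipoproteins, and the remaining apolipoprotein and high-density lipoprotein genes formed a list of their own, of which 4 of 12 tested genes rose and 0 fell (edgeR). Their median log2 fold change was 0.17. Lrp1, a receptor for apolipoprotein E, averaged 684 ± 420 CPM in P1 spleens and 84.9 ± 35.6 CPM in WT B cells (SD, n = 3 each; edgeR, adjusted p = 0.00489). Scarb1, the high-density lipoprotein receptor, averaged 63.8 ± 29.1 CPM in P1 spleens and 15.5 ± 3.80 CPM in WT B cells (SD, n = 3 each; edgeR, adjusted p = 0.00739). Apobr, a receptor for apolipoprotein B48, had a log2 fold change of 3.20 (edgeR, adjusted p = 0.00311). The secreted apolipoproteins Apoa4, Apoc2 and Apoc3 had 0 counts in every P1 and every WT library.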

How the data were processed

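The authors deposited 1 table of raw counts per gene for 6 libraries, with exon lengths and GRCm39 coordinates. Per the labels, 50 ng of RNA went into NEBNext Ultra Directional libraries. Per the submitters' processing notes, Trim Galore, HISAT2 and featureCounts were used; versions, strand setting and treatment of multi-mapping reads are not given in the sources used here, and reads of near-identical Apol genes depend on that treatment. Symbols matched 91.3% of 56884 IDs. Genes were filtered with filterByExpr and tested with edgeR 4.0.16 (R 4.3.3; TMM, quasi-likelihood, 2 groups, Benjamini-Hochberg adjustment over 15462 genes, threshold 0.05). The fit was also run on simulated counts with few genes changed, in both directions. That run does not cover the many large erythroid rises of these libraries or their effect on scaling. DESeq2 1.42.0, limma 3.58.1 (voom), other scalings, no filter and leaving out each library were alternatives. P-values measure only the spread between these samples, whose independence is not stated. Intervals (95%, exact binomial) cover counting error only. RPKM used the deposited exon lengths. Identities and motifs were computed with Biopython 1.88 from GENCODE M21 and RefSeq, both GRCm38.p6. Members and the 13 gene lists were chosen with earlier results of these data known. Named were all Apol rows, position neighbours, the 5 genes most like Apol11a and Apol11b (Apol9b was not tested), and from each list genes taken from those of smallest adjusted p and highest mean CPM. Rigi was not matched in the interferon list.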

Additional observations from a re-analysis of the deposited data

How the results depend on the processing

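Scaling to equal pan-B levels moved most: 13577 genes were higher and 129 lower, against 2618 and 1702, with a median change over all tested genes of 2.72 (log2), and 36 interferon-stimulated genes were higher and 0 lower. The same scaling called 16 guanylate-binding and immunity-related GTPase genes higher, 18 of interferon ligands, receptors and signalling, and 12 other apolipoprotein genes. It also called 17 macrophage and 9 dendritic genes higher, with 0 lower in each of these lists. Under it Apol11b, Apol11a, Apol8, Apol10b and Apol7c stood at 16.46, 15.05, 7.53, 6.19 and 3.33. Library totals alone moved that median to -0.25. Leaving out 1 library gave 1644 to 3207 genes higher and 815 to 2313 lower, 9 to 20 interferon-stimulated genes higher and 0 to 3 lower, and 32 to 34 erythroid genes higher. Apol7c ran between -1.60, a reversal without P1 replicate 3, and 2.01. Under the remaining settings (DESeq2, limma-voom, library totals, no filter) these counts stayed within 1.5 times. Over all settings Apol11b lay at 12.46 to 16.46, Apol11a at 11.34 to 15.05, Apol8 at 4.08 to 7.53 and Apol10b at 3.05 to 6.19. The P1 range per interferon-stimulated sum was 2.63-fold for Apol11a, 6.53-fold for Apol11b and 1.59-fold for Apol8, and that per erythroid sum was 2.33-fold for Apol11b. Beyond the construction of these settings, the cause was not tested. The groups came from different mice and the labels give no pairing, so no paired analysis was run. Depth limits Apol6, Apol9a and Apol9b, and all WT levels of Apol11a and Apol11b.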

Other observations

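Apold1, which is named for likeness to the family but lies on chromosome 6, had 3.51, 48.6 and 3.12 CPM in P1 replicates 3, 4 and 5, against 0.483, 0.512 and 1.13 CPM in WT B cells A, B and C. The groups did not overlap, and P1 replicate 4 lay far above the other P1 libraries. Rbfox2, a splicing regulator that lies between Apol6 and Apol7a, did not pass the filter on low counts. It had 0.771, 10.1 and 0.347 CPM in P1 replicates 3, 4 and 5, against 0.121, 0.192 and 0.452 CPM in WT B cells A, B and C, so that the groups overlap.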
